A study of Mus musculus with 4 samples.

Results

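The 32 genes described here encode the actin cytoskeleton and contractile machinery of mouse embryonic fibroblasts (MEFs). They were chosen by symbol as myofibroblast markers, targets of serum response factor (SRF) and stress-fiber genes, and all 32 were found among the 55487 genes counted. MEFs are primary cells, here from Wild-type C57BL/6J embryos, and the labels give them as passage 2. A different passage is named in the published text. Cells were treated for 24 h with 100 ng/mL of pigment epithelium-derived factor (PEDF), a secreted glycoprotein purified from mammalian cells, or were left untreated, and all were grown in DMEM with serum. Polyadenylated RNA was sequenced in 4 libraries. Experiments 1 and 2 each gave 1 control and 1 PEDF library, and each used its own embryos. MEF cultures are not clonal, and in bulk RNA fewer cells of a type and less RNA per cell cannot be told apart.

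Actin monomers polymerize into filaments, and in cultured fibroblasts these filaments are bundled with non-muscle myosin II into stress fibers that end at focal adhesions. Tropomyosins, calponins and transgelins decorate the filaments, filamins and alpha-actinins crosslink them, and talin, vinculin and zyxin couple them to integrins. SRF, with its actin-regulated cofactors of the MRTF family, binds the CArG box and transcribes many of these genes, and smooth muscle alpha-actin (Acta2) in stress fibers is the usual mark of a myofibroblast.

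The libraries held 14722848 (control, experiment 1), 18144640 (control, experiment 2), 15361948 (PEDF, experiment 1) and 17787193 (PEDF, experiment 2) counts, of which the 32 genes took 3.11% to 3.32%. Between any pair of libraries, counts over 10722 genes differed by more than sampling noise, with a chi-square per degree of freedom from 3.88 (control of experiment 1 and PEDF of experiment 2) to 22.7 (control of experiment 2 and PEDF of experiment 1). Fibroblast markers were abundant, with Col1a1 at 17300 to 24010 CPM (counts in 1000000, with libraries scaled by edgeR's TMM factors) and Col1a2 at 8096 to 9471 CPM. The 9 fibroblast markers summed to 43400 and 51070 CPM in control MEFs and to 38980 and 42120 CPM in PEDF-treated MEFs, so their sum was lower with PEDF in both experiments. The markers went both ways, since Fn1 (-0.37, adjusted p 2.89e-21), Col1a1 (-0.24, adjusted p 6.36e-10), Pdgfrb (-0.22, adjusted p 0.000125) and Col1a2 (-0.12, adjusted p 0.0199) fell and Dcn (0.35, adjusted p 1.14e-06) and Lum (0.34, adjusted p 1.12e-05) rose in edgeR with the experiment as a block. Of these 6, Col1a2 did not pass once a trend with gene length, described below, was removed (-0.034, adjusted p 0.811). The part of this shift in the results below was not tested. The 9 smooth muscle markers summed to 536 to 545.3 CPM in control MEFs and 526.6 to 544.2 CPM with PEDF, led by Smtn and Des. The 11 skeletal muscle markers summed to 424.7 to 502.7 and 472.1 to 555.5 CPM, led by Myh3 and Des, higher with PEDF in both experiments, and of the defining factors Myod1 was at 12.4 to 16.6 CPM and Myog at 30.5 to 39.9 CPM, while Myf5, Pax7 and also Ckm stayed under 1 CPM. Cardiac muscle markers, led by Actc1 and Tnnt2, summed to 184.7 to 227.2 and 207.6 to 261.7 CPM, with the defining Nkx2-5 and Myl7 under 1 CPM. Without Actc1 this sum was 63.5 in control and 61.1 with PEDF in experiment 1, and 74.5 and 76.3 in experiment 2. Macrophage markers (Lyz2, Csf1r) summed to 91.4 to 140.2 and 115 to 139.5 CPM, epithelial markers (Krt18, Krt8) to 42.6 to 56.7 and 43.5 to 55.5 CPM, and endothelial markers (Kdr, Tek) to 16.2 to 16.3 and 16.0 to 16.7 CPM, with the defining Pecam1 at 0.786 to 0.897 CPM. Of the macrophage markers, only Lyz2 passed in edgeR with the block (0.39, adjusted p 2.01e-05). It also passed with the length trend removed (0.31, adjusted p 0.00395). The log2 difference of Lyz2 was 0.049 in experiment 1 and 0.80 in experiment 2. No marker of any of these lists was at 0 in all 4 libraries.

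Levels of the 32 genes were first compared with each other as TPM, which is scaled for gene length. Together they took 2.26% and 2.40% of the TPM of the control libraries and 2.18% and 2.35% of that of the PEDF libraries, and their mean levels ran from 2.63 TPM (Synpo2) to 3729 TPM (Actb). Cytoplasmic beta-actin (Actb) was highest, at 3557 to 3848 TPM over the 4 libraries. Acta2 was second with 2856 to 3148 TPM, or 0.784 to 0.824 of Actb in the same library, and was followed by cytoplasmic gamma-actin (Actg1, 2363 to 2422 TPM), vimentin (Vim, 1955 to 2165 TPM), the intermediate filament of mesenchymal cells, and transgelin (Tagln, 1579 to 1614 TPM). The ranges of these 5 neighbors in the order did not overlap, and the 5 held 54.9% to 56.6% of the summed TPM of the 32 genes. Below them, tropomyosin 1 (Tpm1, 1002 to 1120 TPM) and filamin A (Flna, 861.6 to 1231 TPM) overlapped. Enteric gamma-actin (Actg2) was at 302.5 to 339.1 TPM. Only 5 genes averaged under 100 TPM, namely Cnn1, Srf, Lmod1, Mylk and Synpo2. Within myosin II, Myh9, the heavy chain of myosin IIA, was 2.19 to 2.71 times as abundant as Myh10, the heavy chain of myosin IIB.

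**Figure D1:**
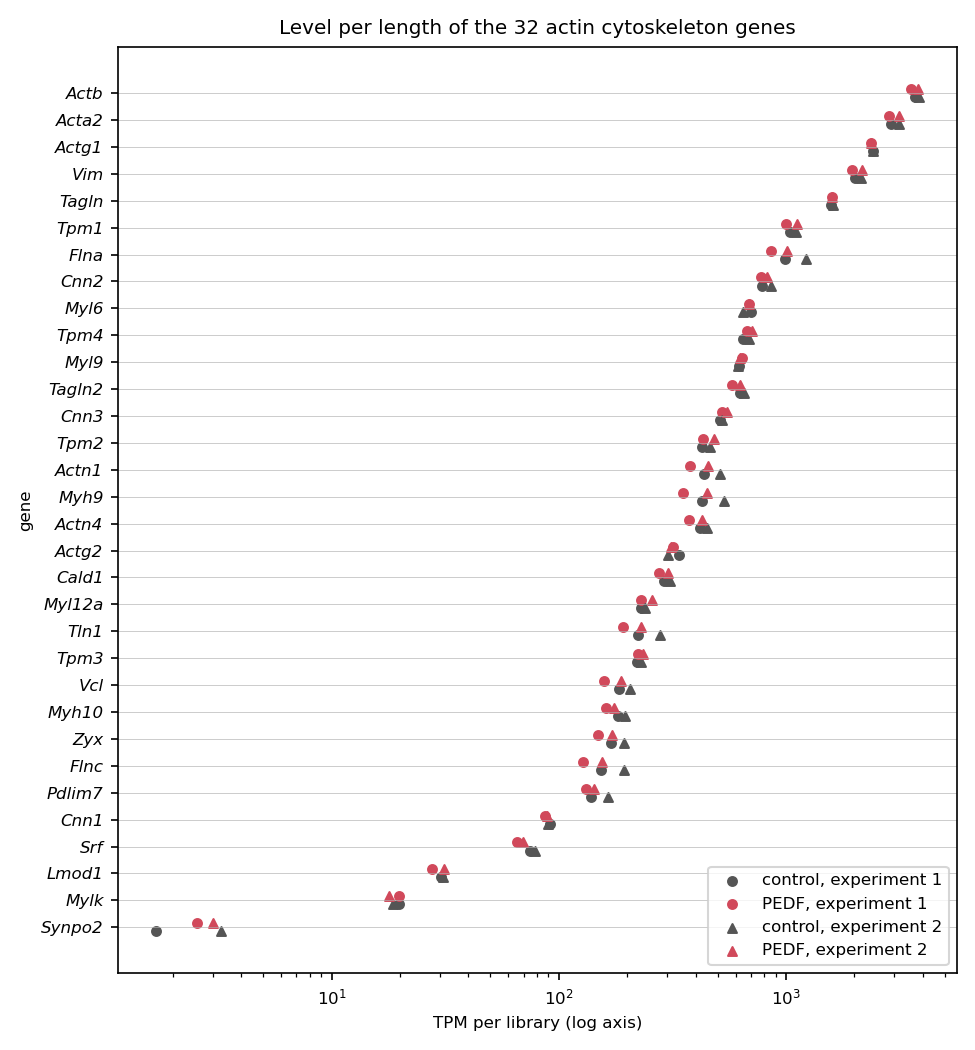
Level per length (TPM, log axis) of the 32 genes in each library, ordered by mean, with control in gray, PEDF in red, circles for experiment 1 and triangles for experiment 2. Actb is at the top with a mean of 3729 TPM and Synpo2 at the bottom with 2.63 TPM, and for most genes the 4 points lie almost on top of each other.

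Some of these counts are uncertain because genes overlap or have near-identical copies, and the strand setting of the counting is not stated, although the library kit kept strand. Tagln had 16450, 19769, 17952 and 19737 counts in control 1, control 2, PEDF 1 and PEDF 2, and the antisense gene Gm48529 had 16334, 19644, 17865 and 19671 counts, 99.3% to 99.7% of the Tagln count in each library, so reads of this pair cannot be assigned to a strand. Vcl shares part of its span with Ap3m1 (58.2% of the Vcl counts), Mylk with Gm21691 (21.1%), Cnn3 with Gm42928 (20.8%) and Tpm4 with Gm26586 (17.7%), all on the opposite strand. The other 12 of the 17 genes with an overlapping partner had partners below 10% of their counts. The copy Tpm3-rs7 had 2870 counts in all, and the actin pseudogenes Actg-ps1 and Actb-ps1 had 6 and 3.

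Because the list was drawn partly from SRF targets, the promoters of its genes were searched for the CArG box. RefSeq (GRCm38.p6) promoters, running from 250 bases before to 50 after the annotated start, matched 29 of the 32 genes with 33 promoters; Actb, Actg2 and Tagln had no entry. A CArG box on either strand was found in 6 of the 33 promoters (18.2%), those of Actg1, Cnn2, Myl6, Myl9, Srf and Vcl, compared with 1.63% of all 32851 promoters in the table. The TEAD core GGAATG was found on either strand in 13 of 33 (39.4%), compared with 14.7% of all promoters. Of 2 other motifs searched, GGGCGG was found in 24 of 33 (72.7%), compared with 35.7% of all promoters. The other, TATAAA, was found in 5 of 33 (15.2%), compared with 13.6%. Vcl was the only gene with both a CArG box and GGAATG, and there they did not overlap. A match is a description of the letters and not of binding. The promoters below are those of Srf itself, Vcl, Actg1 and Myl9, as genes with a CArG box, and of Flna and Myh9, which fell with PEDF in the blocked test below and had no CArG box in this window. CArG boxes are in capitals, each sequence is written 5′ to 3′ on the strand of its gene, and positions are counted from the start.
Srf, minus strand of chr17:46556113-46556412, with boxes beginning at -82 and -62: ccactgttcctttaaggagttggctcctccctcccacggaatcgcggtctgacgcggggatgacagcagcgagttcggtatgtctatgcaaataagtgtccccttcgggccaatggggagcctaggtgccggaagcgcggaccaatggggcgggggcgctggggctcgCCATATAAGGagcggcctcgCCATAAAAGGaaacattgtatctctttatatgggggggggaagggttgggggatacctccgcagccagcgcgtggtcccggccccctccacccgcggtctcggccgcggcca
Vcl, plus strand of chr14:20929148-20929447, with a box at -227: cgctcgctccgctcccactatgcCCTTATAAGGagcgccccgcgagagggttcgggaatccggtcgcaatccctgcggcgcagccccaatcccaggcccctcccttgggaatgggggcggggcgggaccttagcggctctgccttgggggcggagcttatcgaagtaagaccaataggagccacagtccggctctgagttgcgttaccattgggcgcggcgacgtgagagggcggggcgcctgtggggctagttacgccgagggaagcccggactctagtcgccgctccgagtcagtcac
Actg1, minus strand of chr11:120348446-120348745, with a box at -90: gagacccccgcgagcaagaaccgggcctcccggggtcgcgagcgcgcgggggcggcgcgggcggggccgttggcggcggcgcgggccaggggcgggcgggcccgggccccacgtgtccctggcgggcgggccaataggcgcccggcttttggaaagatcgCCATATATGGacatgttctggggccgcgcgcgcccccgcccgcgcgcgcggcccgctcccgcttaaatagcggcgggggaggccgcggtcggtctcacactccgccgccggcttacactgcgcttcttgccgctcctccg
Myl9, plus strand of chr2:156775214-156775513, with a box at -161: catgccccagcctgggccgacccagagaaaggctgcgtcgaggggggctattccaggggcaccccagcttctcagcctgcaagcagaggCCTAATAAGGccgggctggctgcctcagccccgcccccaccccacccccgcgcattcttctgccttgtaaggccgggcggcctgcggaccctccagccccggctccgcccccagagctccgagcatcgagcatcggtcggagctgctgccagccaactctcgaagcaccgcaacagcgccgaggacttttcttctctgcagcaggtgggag
Flna, minus strand of chrX:74246485-74246784: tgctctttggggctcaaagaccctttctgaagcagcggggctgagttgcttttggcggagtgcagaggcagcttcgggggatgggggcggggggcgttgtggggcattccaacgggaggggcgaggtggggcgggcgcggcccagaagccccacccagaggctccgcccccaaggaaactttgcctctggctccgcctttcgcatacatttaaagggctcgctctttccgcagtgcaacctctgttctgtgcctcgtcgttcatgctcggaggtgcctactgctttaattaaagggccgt
Myh9, minus strand of chr15:77842126-77842425: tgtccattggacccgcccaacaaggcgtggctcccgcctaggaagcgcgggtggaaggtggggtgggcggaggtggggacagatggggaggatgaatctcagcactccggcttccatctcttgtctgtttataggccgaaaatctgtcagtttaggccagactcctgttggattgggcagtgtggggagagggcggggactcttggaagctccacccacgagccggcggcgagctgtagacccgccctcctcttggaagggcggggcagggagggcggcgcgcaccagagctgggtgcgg

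The response to PEDF was tested next. Both myosin heavy chains, 3 of 5 crosslinkers and 3 of 4 adhesion genes fell with PEDF by a small amount when the libraries of an experiment were paired, and none of the 32 genes passed the main test, which does not pair them. The actins, the filament-decorating proteins and the myosin light chains showed no difference that passed. When experiment was a block in the model, so that PEDF was set against control of the same MEF preparation, 8 of the 32 genes fell and none rose in edgeR's quasi-likelihood test at an adjusted p under 0.05. The 8 were Myh9, Myh10, Flna, Flnc, Actn1, Vcl, Tln1 and Zyx, and their levels were 1.11-fold to 1.21-fold lower. Over all 19384 genes tested, 2.07% fell and 1.67% rose in this fit. Of the 10722 genes with a mean log2 CPM above 3, 385 fell and 306 rose. Without the block, the fit used as the main comparison, none of the 32 genes passed, and the smallest adjusted p was 0.696. At an unadjusted p under 0.05 this fit gave 6 of the 32 (Myh9, Myh10, Flna, Flnc, Tln1 and Zyx) beside 6.88% of all genes, and at an adjusted p under 0.05 it called 0.00516% of all genes. DESeq2 called none without the block. With the block, DESeq2 called 4 (Myh9, Flna, Flnc and Tln1) beside 0.609% of all genes, and set no adjusted p for 5 genes. The standard error of a log2 fold change had a median of 0.075 without the block and 0.043 with it. The samples are 2 preparations, and p-values measure only the spread between these libraries, which the fit pools over genes. With the block, an SE therefore says little about how well a gene's own 2 experiments match. Ccn2, a gene outside the list, differed by -0.33 and -0.018 in experiments 1 and 2 and had an SE of 0.043. Myh10 differed by -0.15 in both experiments and had the same rounded SE of 0.043.

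The medians of the list were near 0. The median log2 fold change of the 32 genes was -0.013 without the block and -0.013 with it, beside 0.0012 and 0.0023 over all genes tested. Both PEDF libraries lay below both control libraries for 6 of the 32 genes (Tagln2, Myh10, Flna, Flnc, Zyx and Srf), beside 18.4% of all genes, and above them for 4 (Tpm3, Tpm4, Cnn3 and Myl12a), beside 18.9% of all genes. Within both experiments, PEDF was lower than control for 15 genes, beside 28.8% of all genes, and higher for 8, beside 30.1%.

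**Figure D2:**
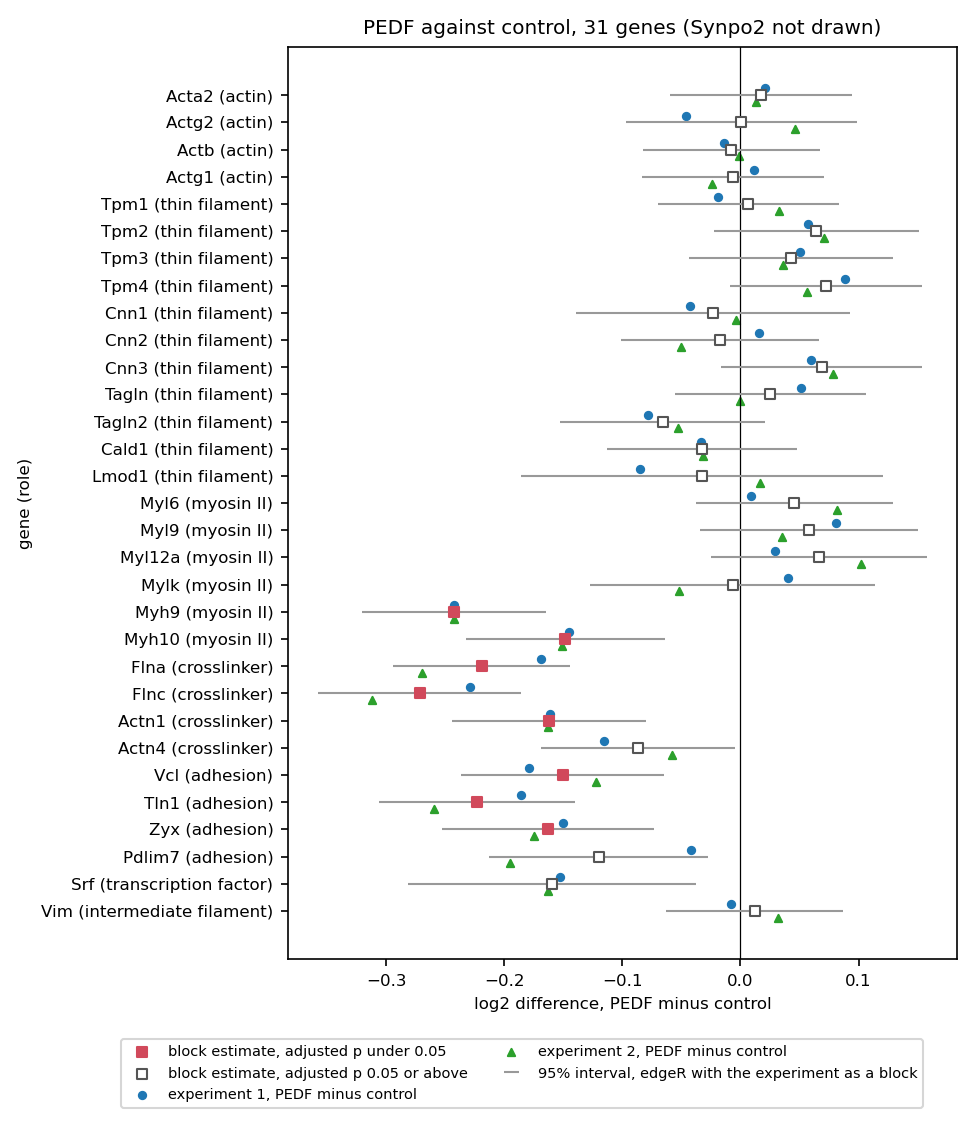
Log2 difference between PEDF and control for 31 genes (Synpo2, with few counts, is left out), as the edgeR estimate with the experiment as a block and its 95% interval (squares, filled where the adjusted p is under 0.05) and as the difference in experiment 1 (circles) and experiment 2 (triangles). The 8 filled squares are all left of 0, between -0.27 and -0.15, and belong to myosin heavy chains, crosslinkers and adhesion proteins.

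None of the 4 actins passed the test. Acta2 was at 2255 CPM in control and 2288 CPM in PEDF-treated MEFs of experiment 1, and at 2381 and 2403 CPM in experiment 2. The values of this myofibroblast marker lay further apart between experiments than between treatments. Its blocked log2 fold change was 0.017 (SE 0.039, 95% interval -0.060 to 0.094), so a change of the size seen for Myh9 lay outside the interval. Actb (-0.0077, SE 0.038), Actg1 (-0.0063, SE 0.039) and Actg2 (0.00071, SE 0.050) gave log2 fold changes as close to 0, and the intervals of all 4 actins together ran from -0.097 to 0.099. Vim had a blocked log2 fold change of 0.012 (SE 0.038), with 3402 and 3491 CPM in control and 3382 and 3569 CPM in PEDF-treated MEFs.

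None of the 11 thin filament proteins passed either, and their blocked log2 fold changes ran from -0.066 (Tagln2) to 0.072 (Tpm4). Tropomyosins, which lie along the filament and control access of myosin, gave positive estimates for Tpm2 (0.064), Tpm3 (0.043) and Tpm4 (0.072), and 0.0067 for Tpm1. Tpm4 was at 985.4 and 1015 CPM in control and at 1047 and 1056 CPM in PEDF-treated MEFs. The groups did not overlap, but the adjusted p was 0.434 with the block. Of the calponins, which bind actin and restrain myosin, Cnn3 was at 553.5 and 548.3 CPM in control and 576.8 and 578.8 CPM with PEDF (adjusted p 0.5 with the block), while Cnn1 (-0.023) and Cnn2 (-0.017) had log2 fold changes near 0. Tagln was at 1115 and 1108 CPM in control and 1155 and 1108 CPM with PEDF, with the limit on its counts given above. Its relative Tagln2 was at 463.1 and 469.2 CPM in control and 438.5 and 452.4 CPM with PEDF (adjusted p 0.541 with the block). Caldesmon (Cald1, -0.033) and leiomodin 1 (Lmod1, -0.032), a nucleator of actin filaments in smooth muscle, did not pass.

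In non-muscle myosin II, both heavy chains fell with the block and none of the light chains or their kinase passed the test. Myh9 (ENSMUSG00000022443, chromosome 15 from 77760587 to 77842175 in GRCm38) was at 1967 CPM in control and 1662 CPM in PEDF-treated MEFs of experiment 1, and at 2378 and 2010 CPM in experiment 2. PEDF was lower than control in both experiments by the same log2 difference of -0.24, and the groups overlapped only because PEDF-treated MEFs of experiment 2 lay above control MEFs of experiment 1. The blocked log2 fold change was -0.24 (SE 0.040, adjusted p 2.82e-07 in edgeR). Myh10 was at 677.8 and 710.1 CPM in control and 612.9 and 639.3 CPM with PEDF, without overlap, and its blocked log2 fold change was -0.15 (SE 0.043, adjusted p 0.0209 in edgeR). Myh10 did not pass once the trend with gene length was removed (-0.074, adjusted p 0.506). The essential light chain Myl6 (0.046) and the regulatory light chains Myl9 (0.058) and Myl12a (0.067) had positive estimates, and Mylk, the kinase that activates the regulatory light chain, had an estimate of -0.0066.

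Among the crosslinkers, 3 of 5 fell with the block. Flna (ENSMUSG00000031328, chromosome X from 74223461 to 74249820), which joins filaments into orthogonal networks and binds integrin tails, was at 3342 and 4021 CPM in control and 2973 and 3336 CPM in PEDF-treated MEFs. All PEDF values were below all control values, although 3336 and 3342 almost met. Its blocked log2 fold change was -0.22 (SE 0.038, adjusted p 2.31e-06 in edgeR). Flnc, the muscle filamin, was less abundant per length (127.5 to 193.3 TPM, with Flna 6.37 to 6.76 times as high in the same library) and gave the lowest estimate of the list. It was at 512.7 and 628.1 CPM in control and 437.4 and 505.8 CPM with PEDF, with a blocked log2 fold change of -0.27 (SE 0.044, adjusted p 1.81e-07 in edgeR). Alpha-actinin 1 (Actn1) was at 856.1 and 977.9 CPM in control and 765.6 and 873.2 CPM with PEDF (-0.16, SE 0.042, adjusted p 0.00659 in edgeR with the block), so the groups overlapped but each PEDF library lay below the control of its experiment. Its relative Actn4 had an estimate of -0.087 and an adjusted p of 0.301. Synpo2 (myopodin), an actin-bundling protein of Z-discs, had only 116, 264, 190 and 243 counts in control 1, control 2, PEDF 1 and PEDF 2, and its log2 differences were 0.61 in experiment 1 and -0.11 in experiment 2.

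All 4 adhesion genes had negative estimates and 3 of them fell with the block. Talin 1 (Tln1, ENSMUSG00000028465, chromosome 4 from 43531519 to 43562691), which binds integrin tails and actin, was at 777.8 and 942.1 CPM in control and 683.6 and 787.1 CPM in PEDF-treated MEFs (-0.22, SE 0.042, adjusted p 2.29e-05 in edgeR with the block). Vinculin (Vcl), which is recruited to stretched talin, was at 533.8 and 583 CPM in control and 471.3 and 535.5 CPM with PEDF (-0.15, SE 0.044, adjusted p 0.0215). Vcl did not pass once the trend with gene length was removed (-0.10, adjusted p 0.28). Zyxin (Zyx), a LIM protein of tensed stress fibers, was at 323.7 and 361.2 CPM in control and 291.6 and 319.9 CPM with PEDF (-0.16, SE 0.046, adjusted p 0.0156). For Zyx the groups did not overlap, while for Tln1 and Vcl the PEDF library of experiment 2 lay above the control library of experiment 1. Pdlim7, a PDZ and LIM protein of stress fibers, had an estimate of -0.12 and an adjusted p of 0.147. Srf itself (chromosome 17 from 46548329 to 46556175) was at 77.1 and 78.5 CPM in control and at 69.3 and 70.1 CPM with PEDF. The groups did not overlap and the difference was -0.15 and -0.16 on the log2 scale in experiments 1 and 2, but the adjusted p was 0.142 with the block.

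**Figure D3:**
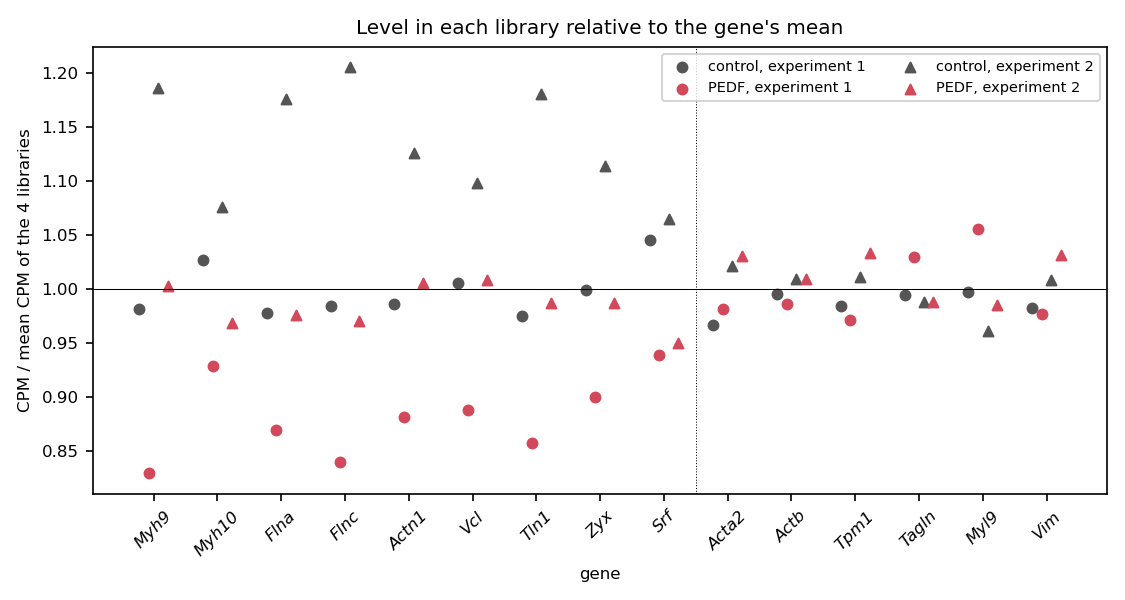
CPM of each library divided by the gene's mean CPM over the 4 libraries, for the 8 genes that fell with the block and Srf (left of the dotted line) and for 6 other members (right), with control in gray, PEDF in red, circles for experiment 1 and triangles for experiment 2. On the left, control of experiment 2 is highest and PEDF of experiment 1 lowest, and for the genes that fell, apart from Myh10, PEDF of experiment 2 lies close to control of experiment 1.

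Some of the 32 genes also differed between MEF preparations. For all 8 genes that fell with the block, the control library of experiment 2 was the highest and the PEDF library of experiment 1 the lowest, as for 14 of the 32 genes in all, beside 14.7% of all genes, and this pair of libraries also differed most over all genes (chi-square above). When experiment 2 was compared with experiment 1 in edgeR, none of the 32 genes passed without a term for treatment, beside 0.0567% of all genes, and 8 had an unadjusted p under 0.05, beside 7.67% of all genes. DESeq2 also called none. With the treatment as a term, 8 genes were higher in experiment 2 (Myh9, Flna, Flnc, Actn1, Synpo2, Vcl, Tln1 and Zyx) and Actg2 was lower, beside 4.49% of all genes in either direction. Myh9 was higher in experiment 2 by 0.27 on the log2 scale both in control and in PEDF-treated MEFs (adjusted p 1.9e-09 in edgeR with the term). Actg2 was at 187.5 and 181.6 CPM in experiment 1 and at 162.7 and 168.1 CPM in experiment 2, lower by -0.20 in control and -0.11 in PEDF-treated MEFs (adjusted p 0.0396). In all, 23 of the 32 genes were higher and 7 lower in experiment 2 under both conditions, beside 29.4% and 28.9% of all genes. Both comparisons use the same 4 libraries.

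Most of the genes that fell had a large summed exon length, which counts the annotated exons of all transcripts of a gene. Summed exon lengths were taken from GENCODE release M21, and 6 of the 8 genes that fell (Myh9, Myh10, Flna, Flnc, Vcl and Tln1) had more than 8000 bp of exons, as did 9 of the 32 genes. None of the 16 genes of up to 4000 bp fell. The same held outside the list. Of expressed genes (mean log2 CPM over 3), 10.4% of those over 8000 bp fell and 0.377% rose with the block, while 0.922% of those of 1000 to 4000 bp fell and 5.33% rose. Per doubling of length, the log2 difference between PEDF and control changed by -0.040 in experiment 1 and -0.055 in experiment 2, and the difference between experiment 2 and experiment 1 by 0.050 in control and 0.034 in PEDF-treated MEFs. Across the 32 genes, which share the 4 libraries and are not independent replicates, the blocked log2 fold change went with log2 exon length (Pearson -0.43, Spearman -0.43). The values across all 10720 genes were -0.37 and -0.42. Within the experiments, the Pearson value of the 32 genes was -0.15 in experiment 1 and -0.61 in experiment 2, and the Spearman value -0.41 and -0.53.

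When the trend with length was removed from each library in the blocked edgeR test, 7 of the 32 genes were lower and none higher, beside 1.25% lower and 0.908% higher of all genes. Of the 8 genes above, 6 were also called here, namely Flnc (-0.21, adjusted p 0.000256), Flna (-0.16, adjusted p 0.00439), Myh9 (-0.15, adjusted p 0.0123), Tln1 (-0.16, adjusted p 0.014), Actn1 (-0.15, adjusted p 0.0225) and Zyx (-0.15, adjusted p 0.0382). Myh10 (-0.074, adjusted p 0.506) and Vcl (-0.10, adjusted p 0.28) did not pass. Srf, with 2893 bp of exons, passed in this fit (-0.21, adjusted p 0.0398). The log2 fold change of Myh9 was thus -0.24 before and -0.15 after the removal, while those of Actn1 (5533 bp) and Zyx (5390 bp) moved little. After the removal, the estimates of the 4 actins ran from -0.085 to -0.051, with none past the test, and the median of the 32 genes was -0.062, beside -0.0039 for all genes.

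**Figure D4:**
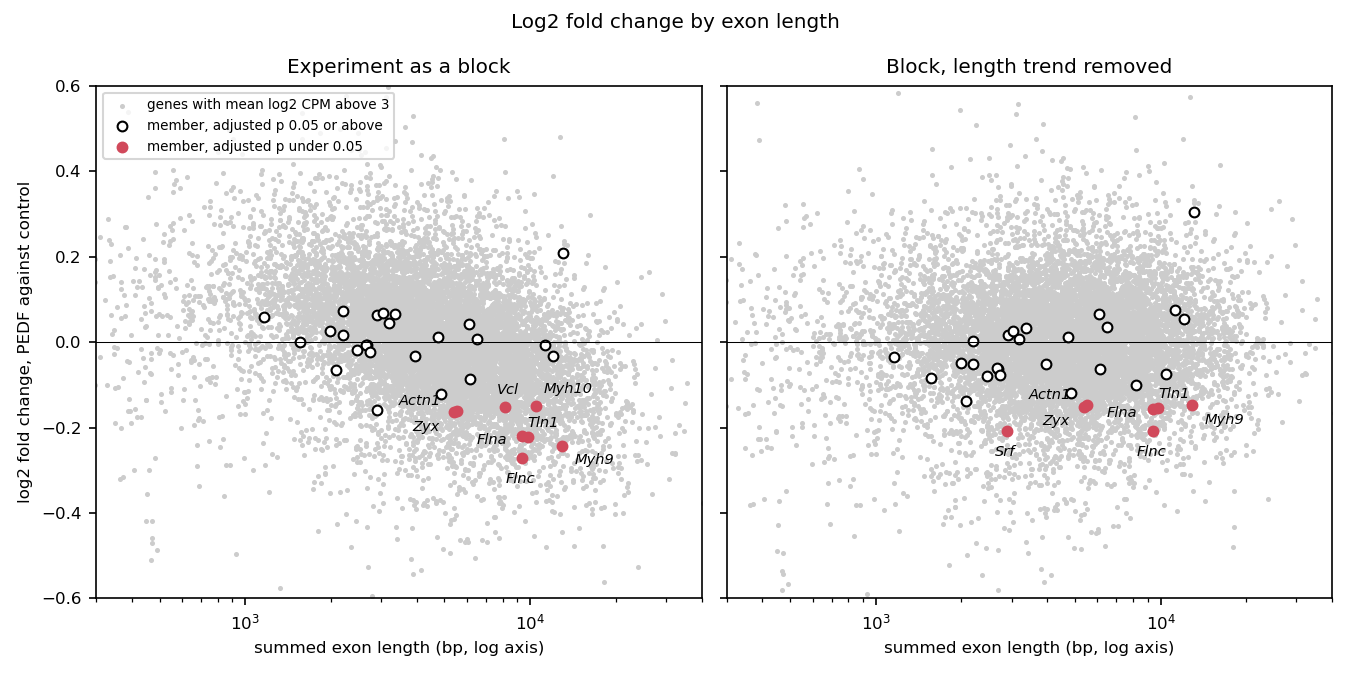
Log2 fold change of PEDF against control by summed exon length (bp, log axis) with the experiment as a block (left) and with the trend removed as well (right), for the 32 genes (circles, red where the adjusted p is under 0.05) over all expressed genes (gray). On the left the gray cloud slopes down and 6 of the 8 red genes lie beyond 8000 bp, and on the right the cloud is flat and 7 genes are red.

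Other genes of the actin system were counted by list, and 173 of 174 genes were tested. None of them passed without the block in edgeR or in DESeq2, and 15 had an unadjusted p under 0.05, beside 6.88% of all genes. With the block, 8 were higher and 11 lower, beside 1.67% and 2.07% of all genes, and with the length trend removed 4 and 5, beside 0.908% and 1.25%. Of 31 focal adhesion adaptors, 2 fell, the LIM protein Lpp (-0.33, adjusted p 1.08e-08) and talin 2 (Tln2, -0.23, adjusted p 0.00234), and Pdlim2 rose (0.43, adjusted p 0.0271). Lpp was at 189.3 and 227.5 CPM in control and 155.8 and 175.6 CPM with PEDF, without overlap. Of 27 other myosins, actinins, filamins and actins, the myosin Myo1e (-0.20, adjusted p 0.0266) fell, and cardiac actin (Actc1, 0.28, adjusted p 1.31e-05), Myl4 (0.25, adjusted p 0.0197) and skeletal actin (Acta1, 0.19, adjusted p 0.0353) rose. Actc1 was at 121.2 and 152.7 CPM in control and 146.5 and 185.4 CPM with PEDF. Acta1 and Des belong to the skeletal muscle list, of which Mylpf also rose with the block (0.31, adjusted p 0.00332) but not with the length trend removed (0.22, adjusted p 0.12). The part of muscle cells in the levels of Actc1, Acta1, Myl4 and Des was not tested.

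In the lists that follow, counts with the block stand beside 2.07% of all genes that fell and 1.67% that rose. Among 21 genes of MRTF and YAP and their targets, 3 fell with the block and none rose. Of the 21 estimates, 13 were negative and 8 positive. Ccn2, a secreted target of YAP, was at 772.8 and 769.5 CPM in control and 614.5 and 759.9 CPM with PEDF, so the difference came mostly from experiment 1 (-0.17, adjusted p 0.00343). Amotl2, a YAP target that restrains YAP (-0.17, adjusted p 0.0106), and Tead1, a DNA-binding partner of YAP (-0.17, adjusted p 0.0163), also fell. Of 24 nucleation genes, the formin Inf2 fell (-0.17, adjusted p 0.0291) and the Arp2/3 subunit Arpc3 rose (0.19, adjusted p 0.0477). Of 31 genes for monomer binding, severing and capping, only Tmsb10, a thymosin that sequesters actin monomers, changed (0.15, adjusted p 0.012). Of 20 intermediate filament and tubulin genes, plectin (Plec), a very large linker of intermediate filaments to actin, fell (-0.39, adjusted p 5.82e-17), and Tuba1a (0.18, adjusted p 0.00227) and desmin (Des, 0.19, adjusted p 0.0309) rose. With the length trend removed, Lpp, Plec, Ccn2 and Inf2 were still lower and Actc1, Myl4 and Pdlim2 higher, while the other 9 genes named from these lists did not pass. Of these, Amotl2 (-0.15, adjusted p 0.0568), Myo1e (-0.19, adjusted p 0.0711) and Des (0.16, adjusted p 0.106) had estimates close to those before the removal, and those of Tln2 (-0.10), Tead1 (-0.072), Arpc3 (0.14), Tmsb10 (0.061), Tuba1a (0.096) and Acta1 (0.11) were closer to 0.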

How the data were processed

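RNA-seq of MEFs with or without PEDF was analyzed from the read counts per gene that the authors deposited, which were not normalized, in 2 control and 2 PEDF libraries with 14722848 to 18144640 counts. Per the labels and the paper's methods, the authors isolated polyadenylated RNA, made directional libraries, trimmed paired reads with Trimmomatic (0.38), aligned them with HISAT2 (2.1.0) to mm10 (GRCm38) and counted uniquely mapped reads with featureCounts (1.6.3). The strand setting and annotation are not given in the sources used here. The authors also deposited TPM values, and these were used only to compare levels between genes and in one alternative.

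Counts were tested on the whole table in R 4.3.3 with edgeR 4.0.16 (TMM factors, quasi-likelihood test with robust estimates, genes with at least 10 counts over the 4 libraries, Benjamini-Hochberg adjustment over all genes tested), without a covariate. Standard errors are the absolute log2 fold change divided by the square root of F. Differences within an experiment are log2 ratios of CPM + 0.5, with no test. The labels give each experiment its own embryos, so the experiment number pairs the libraries and was also fitted as a block. Over 10722 genes, the shift between experiments was correlated between control and PEDF libraries (r = 0.42, computed across genes). The alternatives were RLE factors, no filter on low counts, filterByExpr, DESeq2 1.42.0 with and without the block, limma 3.58.1 on log2(TPM + 1), each library left out in turn, and the block with each library's trend in log2 exon length removed (natural spline, 5 degrees of freedom, fitted where the mean log2 CPM was over 3). Exon lengths were found for all 32 genes, and for all but 21 of the 19384 genes tested. Scripts were tested on simulated data.

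The 32 genes and the lists were chosen with earlier results of these data known. All 32 are described. From the other lists, genes called with or without the block were named, at most 3 a list, and from each marker list the 1 or 2 most abundant. Some genes of these lists are counted in the totals but not reported here. Myo1e, Acta1, Myf5, Pax7, Ckm, Mylpf, Myod1, Myog, Nkx2-5, Myl7, Fn1, Pdgfrb, Dcn, Lum and Pecam1 are named beyond it, picked with their values known. Counting error alone is small for these genes, and PCR copies are not independent molecules.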

Additional observations from a re-analysis of the deposited data

How the results depend on the processing

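Some results changed direction between the alternatives. The estimates of the 8 genes that fell with the replicate block were negative under all alternatives run, but in the test without the block their size depended on single libraries. With 1 library left out it ranged for Myh9 from -0.39 to -0.099, Flna from -0.35 to -0.084, Flnc from -0.41 to -0.12, Tln1 from -0.36 to -0.081, Actn1 from -0.26 to -0.064, Vcl from -0.24 to -0.061, Zyx from -0.24 to -0.082 and Myh10 from -0.18 to -0.12, closer to 0 without control replicate 2 or PEDF replicate 1 and further from 0 without control replicate 1 or PEDF replicate 2. For PEDF against control, 17 of the 32 genes reversed under none of the alternatives, and for experiment 2 against experiment 1, 24 did not. The number of the 32 genes called for PEDF against control was 0 with RLE factors, DESeq2, filterByExpr and limma, 1 (Flnc) with no filter on low counts, 8 with the replicate block, 4 with the replicate block in DESeq2 and 7 with the replicate block and the length trend removed. Leaving out 1 library leaves 1 group with a single library, which is assumed to vary like the others. Genes called in those fits are therefore not counted here. For the other actin-system genes the number was 0 in the main comparison, 2 with no filter, 19 with the replicate block, 5 with the replicate block in DESeq2, 9 with the length trend removed as well, and 0 to 6 with 1 library left out (6 without control replicate 1 and 3 without PEDF replicate 2). For experiment 2 against experiment 1, the number of the 32 genes called was 1 (Myh9) with no filter and 9 with the treatment as a term. No share of all genes is given for RLE factors, filterByExpr, limma, no filter or DESeq2 without the block. Counts under these settings therefore cannot be compared with a rate over all genes. The median log2 fold change of the 32 genes was -0.015 with filterByExpr, -0.062 with the replicate block and the length trend removed, -0.036 with limma, and -0.028 to -0.018 with 1 library left out. The cause of these shifts was not tested.

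The PEDF difference reversed only for genes that were not called in any PEDF fit. With the length trend removed, Acta2 (-0.051), Tagln (-0.049) and Myl9 (-0.034) turned negative and Cald1 (0.055) and Mylk (0.075) positive. Actg2 turned to 0.00071 with the replicate block and 0.00027 with the replicate block in DESeq2. With limma, Acta2 (-0.0067), Tpm1 (-0.017) and Vim (-0.012) turned negative, and the difference between experiments turned positive for Actg1 (0.0057), Cnn3 (0.050) and Tagln (0.020). With 1 library left out at a time, the PEDF difference ranged for Acta2 from -0.022 to 0.056, Actb from -0.024 to 0.0089, Actg1 from -0.040 to 0.027, Actg2 from -0.10 to 0.10, Cnn1 from -0.064 to 0.016, Cnn2 from -0.062 to 0.028, Lmod1 from -0.084 to 0.015, Myl6 from -0.032 to 0.12, Mylk from -0.11 to 0.10, Synpo2 from -0.19 to 0.72, Tagln from -0.0048 to 0.056, Tpm1 from -0.038 to 0.052, Vim from -0.027 to 0.05. The difference between experiments ranged for Cnn3 from -0.046 to 0.035, Myh10 from -0.013 to 0.14, Srf from -0.061 to 0.10, Tagln2 from -0.0071 to 0.072, Tpm3 from -0.017 to 0.033, Tpm4 from -0.016 to 0.072. By counting error alone, the standard error of a log2 difference within an experiment was up to 0.17 (Synpo2), with a median over the 32 genes of 0.021 and 0.019.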
